A study of Caenorhabditis elegans with 2 samples.

Results

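The heterochronic genes are the genes that set the order of larval stages in Caenorhabditis elegans. The 10 examined here were chosen by name, with earlier results of these data known, from 20234 nuclear protein-coding and microRNA genes in all. They comprised 6 protein-coding genes (lin-14, hbl-1, lin-28, lin-41, lin-42 and lin-29) and 4 microRNA genes (lin-4, let-7, mir-48 and mir-84). Chromatin immunoprecipitation followed by sequencing (ChIP-seq) was directed at MDL-1 in whole L4 larvae, pooled male and female, in 2 biological replicates that formed the only group. The worms were of strain OP355, with the genotype unc-119(tm4063) III; wgIs355. The insertion wgIs355 targets mdl-1, and unc-119(tm4063) is the mutant allele present in both replicates. A note in the labels describes the line as carrying a GFP-FLAG tag at the C terminus of KLU-1, while the antibody and description fields name MDL-1. The labels do not give the promoter of the insertion or the tissues that express it, and signal from whole animals mixes all tissues. There was no second stage, strain or condition, so each value is a description without a test between samples.

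A region was assigned to a gene when its summit lay between 5 kb upstream of the most upstream annotated 5' end and the end of the gene. The feature at a summit and its nearest 5' end were taken from protein-coding and microRNA genes, so intergenic and intronic refer to these classes, and other noncoding RNA genes at an optimal summit are named separately. The pooled list held 30000 candidate regions, a relaxed set made as input to a reproducibility test, and each replicate had a list of 30000 of its own. The authors' optimal list, thresholded by that test, held 1115 regions. These were exactly the 1115 pooled regions of highest signal, so a place in the list did not require a high rank in both replicates. The lowest optimal signal (48.2) served as the threshold, and rank 1 is the strongest region of a list. Signal is the authors' value for a region, and since its scale differs from list to list, replicates were set side by side by rank. Read depth is unknown, since the lists hold no read totals.

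MDL-1 is a Mad-like basic helix-loop-helix leucine zipper protein that pairs with the Max-like MXL-1, and proteins of this network bind the E-box CACGTG. The heterochronic pathway turns early larval cell fates into later ones by removing early regulators in sequence. The microRNA lin-4 represses lin-14 and lin-28, the let-7 relatives mir-48, mir-84 and mir-241 act on hbl-1, and let-7 acts on lin-41. At the end of the pathway LIN-29 drives the larva-to-adult switch of the skin cells, which takes place around L4. LIN-42, the worm relative of the Period clock proteins, oscillates with each larval cycle and restrains transcription of the microRNA genes.

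The mature microRNAs are shown because their seeds define the families among which the regions below were found. Each is given from its 5' end, with the seed (bases 2 to 8) in capitals, read from RefSeq coordinates on WBcel235 (ce11). The 4 products mir-48, mir-241, let-7 and mir-84 share the seed GAGGUAG, and lin-4 has CCCUGAG. The gene mir-241 is not one of the 10 but lies beside mir-48 and is nearer to its regions.
lin-4, plus strand of chrII:5902269-5902289: uCCCUGAGaccucaaguguga
mir-48, minus strand of chrV:14364472-14364494: uGAGGUAGgcucaguagaugcga
mir-241, minus strand of chrV:14366248-14366268: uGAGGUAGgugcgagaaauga
let-7, minus strand of chrX:14744234-14744255: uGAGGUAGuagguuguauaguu
mir-84, minus strand of chrX:16022447-16022470: uGAGGUAGuauguaauauuguaga

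The sequences under the summits of the microRNA genes and of lin-42 and lin-14 are shown next because they held repeats of GAGAGA or none of the motifs searched, and no CACGTG. Each is 101 bases centred on the summit, on the plus strand of ce11, with GAGAGA or its reverse complement TCTCTC in capitals, and the rank is that in the pooled list.
mir-48, rank 145, chrV:14366666-14366766: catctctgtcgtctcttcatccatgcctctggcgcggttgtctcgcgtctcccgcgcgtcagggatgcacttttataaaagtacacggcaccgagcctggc
mir-48, rank 392, chrV:14368385-14368485: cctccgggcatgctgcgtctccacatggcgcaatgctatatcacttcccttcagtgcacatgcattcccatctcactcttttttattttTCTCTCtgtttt
mir-84, rank 167, chrX:16024749-16024849: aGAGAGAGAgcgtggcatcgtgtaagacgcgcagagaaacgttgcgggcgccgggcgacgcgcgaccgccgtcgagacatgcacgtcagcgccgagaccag
lin-4, rank 428, chrII:5901822-5901922: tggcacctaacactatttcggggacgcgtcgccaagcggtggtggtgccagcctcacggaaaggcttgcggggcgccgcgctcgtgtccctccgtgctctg
let-7, rank 658, chrX:14747105-14747205: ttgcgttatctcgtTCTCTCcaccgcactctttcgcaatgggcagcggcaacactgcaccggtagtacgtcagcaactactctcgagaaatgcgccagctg
lin-42, rank 63, chrII:1247016-1247116: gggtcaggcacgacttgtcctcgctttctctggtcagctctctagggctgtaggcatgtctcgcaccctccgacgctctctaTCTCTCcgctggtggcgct
lin-42, rank 498, chrII:1238041-1238141: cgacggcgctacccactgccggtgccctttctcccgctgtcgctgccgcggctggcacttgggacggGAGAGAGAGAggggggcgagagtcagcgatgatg
lin-14, rank 586, chrX:11465447-11465547: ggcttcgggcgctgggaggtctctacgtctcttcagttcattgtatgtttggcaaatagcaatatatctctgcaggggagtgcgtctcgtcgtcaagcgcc

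The following windows, of candidates just below the threshold, are shown in contrast because each held the E-box CACGTG (capitals, plus strand of ce11).
hbl-1, rank 1324, chrX:5818244-5818344: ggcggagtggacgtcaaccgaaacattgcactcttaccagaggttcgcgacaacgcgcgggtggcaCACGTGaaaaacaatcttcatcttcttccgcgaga
lin-14, rank 1277, chrX:11469742-11469842: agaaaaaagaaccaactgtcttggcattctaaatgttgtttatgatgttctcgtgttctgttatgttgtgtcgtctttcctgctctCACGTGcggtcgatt

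Each of the 4 microRNA genes and 3 of the 6 protein-coding genes (lin-14, lin-41 and lin-42) had at least 1 optimal region in the window. Among all microRNA genes the share was 18.4% (48 of 261, some of them clustered genes that share a region), and among all protein-coding genes it was 7.46% (1490 of 19973). Taken over both classes, 7 of the 10 genes had an optimal region, against 7.6% of all 20234. Because the 10 were chosen with earlier results of these data known, these shares are a description and no test of the set. The genes hbl-1, lin-28 and lin-29 had candidates below the threshold. All 10 windows held some pooled candidate, but so did 76.2% of all windows (77.0% for microRNA genes and 76.2% for protein-coding genes), so that count carries little about these genes. The 11 optimal regions came to 3 at lin-14, 2 each at lin-42 and mir-48, and 1 each at lin-41, lin-4, let-7 and mir-84. At least 2 optimal regions were present in the windows of 1.28% of protein-coding and 3.83% of microRNA genes. Long windows held an optimal region more often, with 18.1% of protein-coding windows of 20 kb or more and 7.24% of shorter ones. The windows of lin-14 (25.3 kb), lin-42 (24.1 kb) and lin-29 (22.7 kb) were of the long kind, whereas those of the 4 microRNA genes spanned 5.08 to 6.73 kb.

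The strongest region of the 4 microRNA genes was that of mir-48, beyond the neighbouring mir-241. Its pooled signal was 144 (V: 14366518-14366913), and it ranked 145 pooled, 190 in replicate 1 and 92 in replicate 2. The summit lay outside protein-coding and microRNA genes, but within the ncRNA gene F56A12.8 (V: 14366611-14366756, plus strand). It was 2207 bp upstream of the hairpin of mir-48 (V: 14364412-14364509, minus strand) and 433 bp upstream of that of mir-241 (V: 14366188-14366283, minus strand). A further optimal region (V: 14368237-14368632, signal 86.3) lay 3926 bp upstream of mir-48 and 2152 bp upstream of mir-241. It ranked 392 pooled, 408 in replicate 1 and 484 in replicate 2, so both regions were strong in both libraries. As mir-241 was nearer to both, counting a region for the nearest protein-coding or microRNA 5' end alone left mir-48 with none, and 2 kb upstream in place of 5 kb did the same. The 5.1 kb window of mir-48 held 9 pooled candidates, 1.77 per kb, a density that 0.383% of microRNA genes reached, mir-48 included. Several of these candidates overlapped one another, as at V: 14364369-14364764 and V: 14364588-14364983, so they are not all separate sites. Candidates at rank 1443 (signal 42.2) and rank 1631 (39.8) lay just below the threshold, and the one at 1631 overlapped the same replicate regions as the one at 145.

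The gene mir-84 had 1 region, nearly equal in the replicates. The region (X: 16024601-16024996) had a signal of 131 and ranked 167 pooled, 170 in replicate 1 and 169 in replicate 2. Its summit was intergenic and 2321 bp upstream of the mir-84 hairpin (X: 16022404-16022478, minus strand), which was the nearest 5' end of a protein-coding or microRNA gene. A piRNA gene, 21ur-15362, had a 5' end 1748 bp away. It too fell outside the window with 2 kb upstream, where the strongest candidate was one 550 bp upstream (rank 2383, signal 32.9). Both the region and this nearer candidate held GAGAGA within 50 bp of the summit.

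The region of lin-4 was the one closest to its microRNA. It lay at II: 5901674-5902069 with a signal of 83.0, and the hairpin began 382 bp downstream of its summit (II: 5902254-5902347, plus strand). Ranks were 428 pooled, 552 in replicate 1 and 361 in replicate 2. The summit was in an intron of F59G1.4, a protein-coding gene on the same strand (II: 5896170-5904594) within which lin-4 lies, but the 5' end of lin-4 was nearer to it than that of F59G1.4. An ncRNA gene on the opposite strand, F59G1.12 (II: 5901804-5902066), also covered the summit, with its 5' end 194 bp away. The other 3 candidates had signals of at most 34.9, and the strongest of them (rank 2128) was nearer to the 5' end of F59G1.4.

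The region of let-7 lay in the space it shares with a divergent neighbour. Its signal was 66.3 (X: 14746957-14747352), with rank 658 pooled, 615 in replicate 1 and 570 in replicate 2. The summit was 1834 bp upstream of the most upstream 5' end of the let-7 primary transcript (X: 14743590-14745321, minus strand) but 148 bp upstream of the 5' end of C05G5.2 on the plus strand, so under the nearest-5'-end rule let-7 had none. The region was not among the stronger 557 of the optimal list. A candidate of rank 1279 (signal 44.9) lay inside the primary transcript, 171 bp upstream of an internal 5' end, and ranked 857 in replicate 1 and 6857 in replicate 2.

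**Figure D1:**
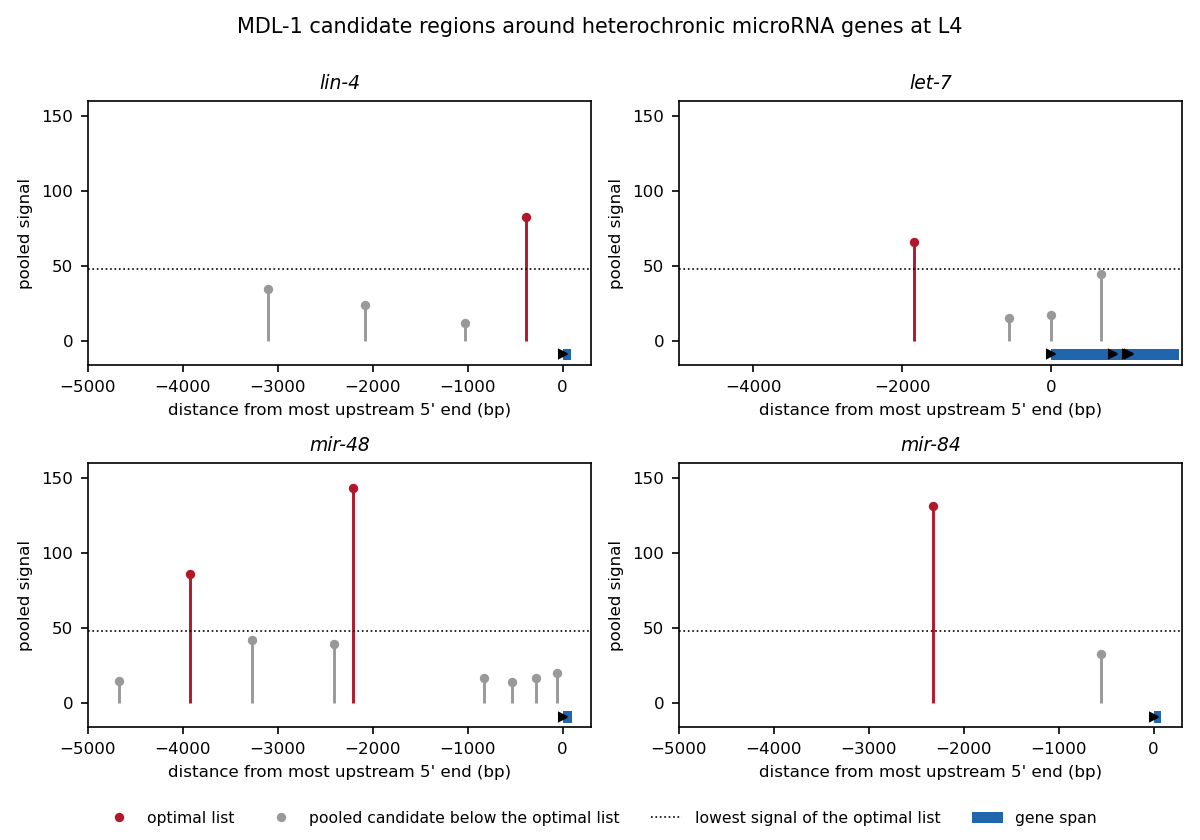
Pooled signal of each candidate region (y axis) against the distance of its summit from the most upstream annotated 5' end (x axis, bp, in the direction of transcription) for lin-4, let-7, mir-48 and mir-84. Red marks optimal regions, grey weaker candidates, the blue bar the gene, black arrowheads its 5' ends and the dotted line the lowest optimal signal (48.2). The optimal summits lie 382 to 3926 bp upstream, and none lies within a gene bar.

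Of the protein-coding genes, lin-42 had the strongest region of all 10 genes. A narrow region of 147 bp (II: 1246952-1247098) had a signal of 192 and ranked 63 pooled, 69 in replicate 1 and 53 in replicate 2. Its summit was in an intron of lin-42 (II: 1233236-1252359, minus strand), 5293 bp downstream of the most upstream 5' end and 3031 bp upstream of an internal one. No other protein-coding or microRNA gene had a nearer 5' end, but the summit was within the ncRNA gene F47F6.15 (II: 1247011-1247153, minus strand), 87 bp downstream of its 5' end. By its strongest region lin-42 came 88th of 19973 protein-coding genes, and 0.441% of them had a region as strong. Another intronic region (II: 1237893-1238288, signal 77.0, rank 498) lay 1122 bp upstream of the internal 5' end at position 1236969. It ranked 258 in replicate 1 but 8804 in replicate 2, where the summit was 210 bp away, so the libraries differed widely there. A weaker candidate (rank 1399, signal 43.1) was in the 5' UTR that follows this 5' end and ranked 2368 in replicate 1 and 1446 in replicate 2. In all, 19 candidates lay in the window, each downstream of the most upstream 5' end.

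The gene lin-14 encodes a nuclear DNA-binding protein that specifies the earliest larval fates, and its window held the most regions. There were 29 pooled candidates (1.15 per kb, a density that 0.521% of protein-coding genes reached), with 29 in the list of replicate 1 and 27 in that of replicate 2. Some of the pooled candidates overlapped one another, as at X: 11481908-11482303 and X: 11482199-11482594. An optimal region (X: 11465299-11465694, signal 70.5, rank 586) was centred 63 bp upstream of the most upstream 5' end of the gene (X: 11465560-11485871, plus strand). Another (X: 11467289-11467684, signal 71.4, rank 572) was in an intron, 1927 bp downstream of that 5' end, and within the ncRNA gene T25C12.7 (X: 11467176-11467530, minus strand). The last (X: 11474125-11474520, signal 50.2, rank 1041) was also intronic, between the 5' ends, at 8763 bp downstream of the one and 6038 bp upstream of the other. They ranked higher in replicate 2 (238, 254 and 727, in the order given here) than in replicate 1 (1119, 1203 and 1312), and none was among the strongest 1115 regions of replicate 1. In replicate 1 other intronic regions of lin-14 took that place, at ranks 910, 932 and 980. The pooled candidates that matched them had signals of 45.0, 40.4 and 43.3. The replicate 2 regions that overlapped these candidates ranked 8791, 8742 and 882, with summits 394, 91 and 32 bp away. The weakest of the optimal regions was close to the threshold of 48.2, and none of the 3 was among the stronger 557. Of the protein-coding genes of chromosome X, 11.6% had an optimal region, and of its microRNA genes 14.9%.

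Of the genes for RNA-binding proteins, lin-41 had an optimal region and lin-28 had none. The gene lin-41 (I: 9334800-9342496, minus strand) encodes a TRIM-NHL protein that keeps lin-29 off and is itself the main target of let-7. It had 1 optimal region (I: 9343771-9344166, signal 77.3, rank 493), intergenic and centred 1473 bp upstream of the most upstream 5' end. The region ranked 369 in replicate 1 and 1620 in replicate 2, so that without replicate 1 lin-41 had none among the strongest 1115. LIN-28 blocks the maturation of let-7, and its gene (I: 8407630-8410804, minus strand) had 5 candidates, all below the threshold. The strongest (signal 37.1, rank 1870) was in an intron, 31 bp upstream of the downstream 5' end of the gene at position 8409920, and ranked 1540 in replicate 1 and 4662 in replicate 2. The nearest optimal summit was 16170 bp upstream of lin-28, and its nearest 5' end was that of F02E9.5.

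The zinc finger genes hbl-1 and lin-29 had no optimal region either. The gene hbl-1 (X: 5822142-5827755, plus strand) encodes the Hunchback-like factor of the early larva and came closest to the threshold. Its strongest candidate (signal 45.3, rank 1262) was intergenic and 1180 bp upstream, with rank 1135 in replicate 1 and 1863 in replicate 2. A candidate 3848 bp upstream (signal 44.1, rank 1324) ranked 1313 in replicate 1 and 3049 in replicate 2 and held a CACGTG 19 bp from its summit. An optimal summit lay 10047 bp upstream (rank 395, signal 85.9), beyond the window, with mir-791 as its nearest gene. The gene lin-29 (II: 11917642-11935343, minus strand), which encodes the factor that ends larval development, had the weakest strongest region of the 10. That candidate (signal 28.0, rank 3403) was in the 3' UTR and nearer to the 5' ends of hmg-12 and vps-15, and it ranked 10593 in replicate 1 and 3170 in replicate 2. By its strongest region lin-29 came 3878th of the protein-coding genes, so 19.4% of them had one as strong, and its nearest optimal summit was 32377 bp upstream.

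**Figure D2:**
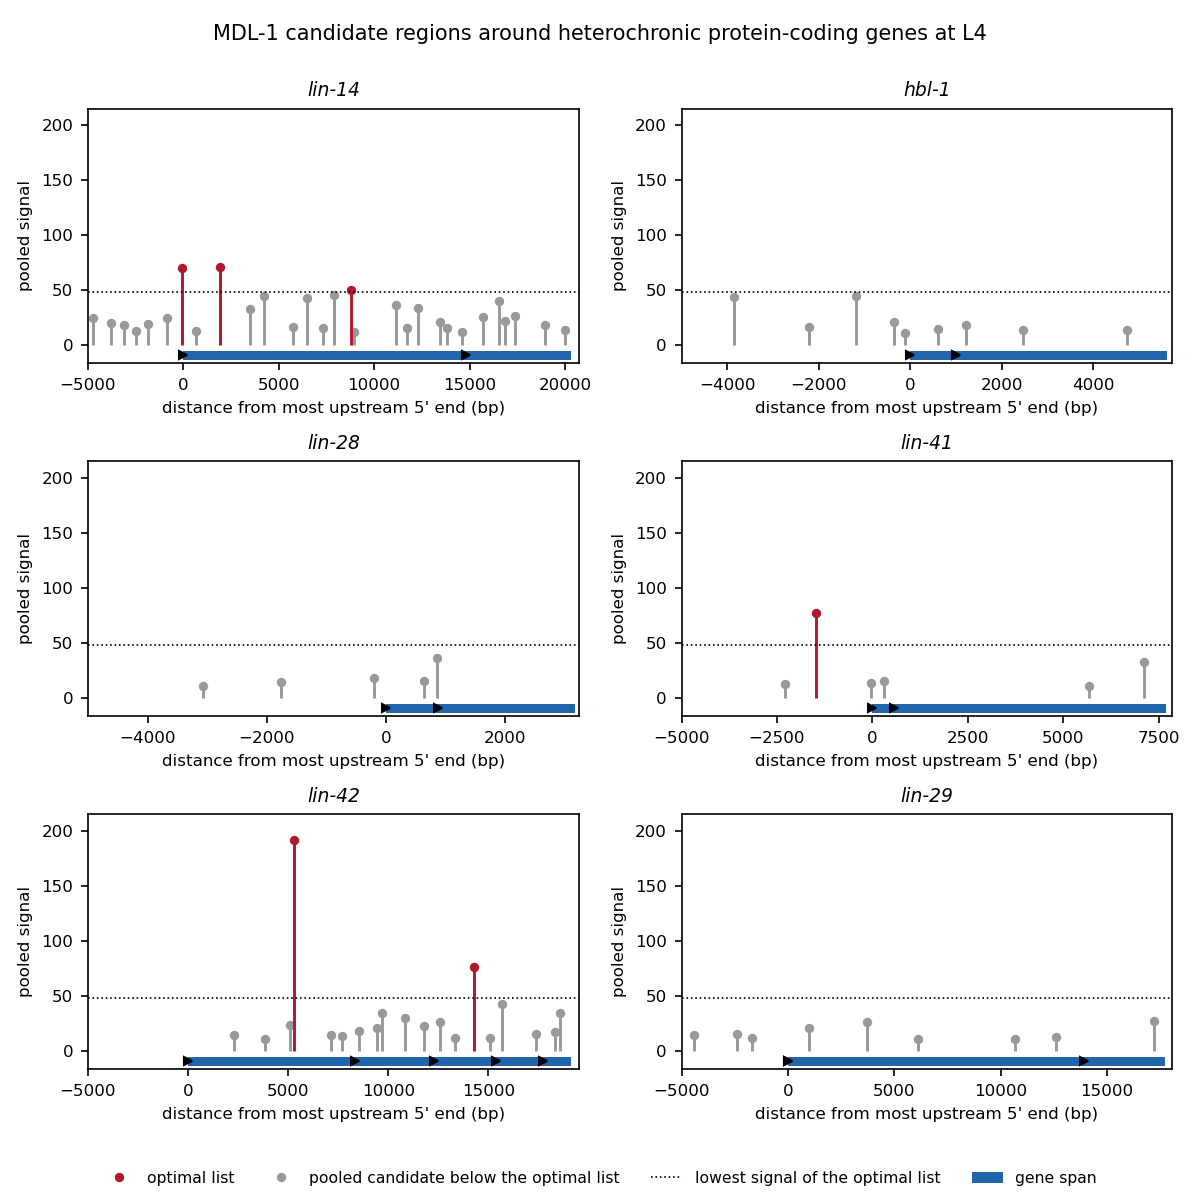
Pooled signal of each candidate region (y axis) against the distance of its summit from the most upstream annotated 5' end (x axis, bp, in the direction of transcription) for the 6 protein-coding genes, with symbols as for the microRNA genes and a separate x range for each gene. The region of signal 192 in lin-42 stands above all others, lin-14 carries 29 regions along its length, and the regions of hbl-1, lin-28 and lin-29 stay under the dotted line at 48.2.

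The replicates placed 6 of the 11 optimal regions among the strongest 1115 of both libraries. These were the 5 microRNA regions and the stronger region of lin-42. The remaining 2 that replicate 1 alone placed there were those of lin-41 and the weaker one of lin-42, and the 3 of replicate 2 alone were those of lin-14. The optimal list was drawn from the same libraries, so these ranks are no separate measure of reproducibility. For these counts, too, no share over all 1115 optimal regions is given. They therefore describe the 11 regions and do not set them apart from others. Of the 85 weaker candidates in the windows, 3 were among the strongest of both, 4 of replicate 1 only and 4 of replicate 2 only. At mir-48 and at lin-42 a weak pooled candidate beside a strong one was matched to the same replicate regions and counts among the 3.

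**Figure D3:**
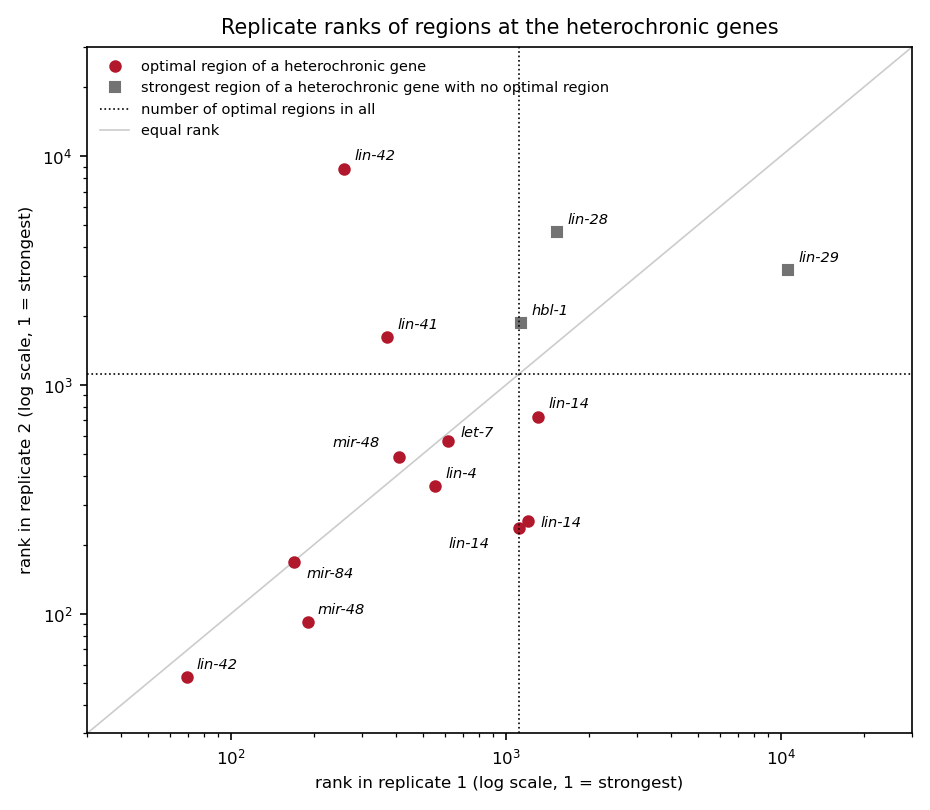
Rank in replicate 1 (x axis, log scale) against rank in replicate 2 (y axis, log scale) for the 11 optimal regions (red circles) and for the strongest candidate of hbl-1, lin-28 and lin-29 (grey squares). Dotted lines mark rank 1115, and the grey line equal ranks. The microRNA regions lie near the line of equal ranks, the 3 of lin-14 to the right of the dotted vertical line, and those of lin-41 and of lin-42 at rank 258 in replicate 1 above the dotted horizontal one.

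With reference to protein-coding and microRNA genes, 6 of the 11 optimal summits were intergenic and 5 in introns, with 0 in UTRs or coding exons. Of these, 4 were also within an annotated ncRNA gene, namely 1 of the intergenic ones (mir-48, rank 145) and 3 of the intronic ones (lin-14, rank 572, lin-42, rank 63, and lin-4). Of the weaker candidates, 5 of 85 were within an annotated noncoding gene (ncRNA or snoRNA). All 5 optimal summits at microRNA genes were upstream of the gene, whereas 4 of the 6 optimal summits at protein-coding genes were within it. Among protein-coding and microRNA genes, the heterochronic gene had the nearest 5' end in 8 of 11, the exceptions being let-7 and both regions of mir-48. Over genes of every annotated class it had the nearest in 3 of 11 (lin-41, and 1 region each of lin-14 and lin-42), and a noncoding RNA gene had it in 7. For these counts of position, noncoding genes and nearest 5' ends, no share over all 1115 optimal regions is given. They therefore describe these regions and do not set them apart from others. Of the 85 candidates below the threshold, 45 were in introns, 25 intergenic, 7 in 3' UTRs, 5 in coding exons, 1 in a 5' UTR and 2 in exons of a microRNA transcript. Per 100 kb, the windows of the 10 genes held 8.76 optimal and 76.4 pooled regions, against 1.11 and 29.9 over the whole nuclear genome. The 4 microRNA windows held 22.7 optimal and 86.4 pooled regions per 100 kb, and the 6 protein-coding windows 5.79 and 74.3. No density over the windows of all genes is given beside these, so the densities describe these windows and are no measure of preference.

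No optimal region of the 10 genes held CACGTG or CACGCG at its summit, and other E-box sequences were not searched. The search covered CACGTG, its variant CACGCG and the repeat GAGAGA within 50 bp of the summit on both strands, overlapping matches included. CACGTG was in 0 of 11 windows, against 19.2% of all 1115 optimal regions, and CACGCG in 0 of 11, against 10.3%. With the whole region searched, CACGTG was in 0 of 11 (29.5% of all) and CACGCG in 1 of 11 (19.2% of all). With so few regions these counts only describe the windows, and a difference from the other regions was not tested. GAGAGA was in 5 of 11 windows (45.5%), namely both of lin-42, that of let-7, the weaker of mir-48 and that of mir-84, against 36.5% of all optimal regions. Within 100 bp it was in 9 of 11 (81.8%), against 54.7% of all. With the whole region searched it was also in 9 of 11, against 65.6% of all. The median GC content of the windows was 55.4%, against 48.5% over all optimal regions, and its part in the motif counts was not tested. Among the 85 weaker candidates, CACGTG was in 3 (3.53%), against 2.96% of all weaker candidates, 2 of them at lin-14 (ranks 1277 and 14070) and 1 at hbl-1.

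**Figure D4:**
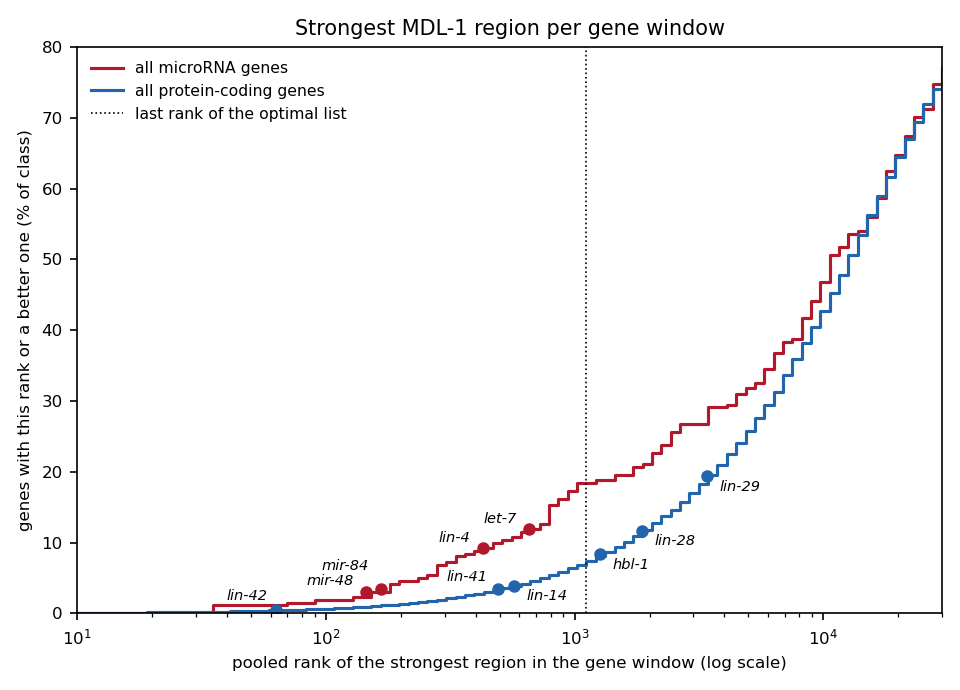
Share of genes (y axis, percent of the class) whose strongest region in the window has a given pooled rank or a better one (x axis, log scale, from rank 10) for all 261 microRNA genes (red line) and all 19973 protein-coding genes (blue line), with the heterochronic genes as points. The dotted line is the last optimal rank (1115). The points of mir-48 and mir-84 lie at 3.07% and 3.45% of the class, that of lin-42 at 0.441%, and those of hbl-1, lin-28 and lin-29 to the right of the dotted line.

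Ordered by their strongest region, the microRNA genes began with mir-54, mir-55 and mir-56 (rank 35, 1 shared region), mir-71 (68), mir-52 (85) and mir-34 (125). The next were mir-48 with mir-241 (145) and then mir-84 (167), with lin-4 24th and let-7 31st of 261. The median microRNA gene had its strongest region at rank 10327, and the median protein-coding gene at 12398. Among protein-coding genes lin-41 came 689th and lin-14 778th, followed by hbl-1 at 1667th and lin-28 at 2326th.

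Optimal regions were also present at 14 of 32 other genes of the developmental timing pathway (43.8%), a list chosen with earlier results of these data known. They comprised 12 of 26 protein-coding genes (46.2%, against 7.46% of all), 1 of 5 microRNA genes (mir-241, against 18.4%) and the noncoding RNA lep-5. The regions of mir-241 were those already counted for mir-48. The median window of these protein-coding genes was 11.4 kb, against 7.03 kb for all. The strongest region was at puf-9, a Pumilio-family repressor (signal 211, 326 bp upstream, rank 48), which ranked 84 in replicate 1 and 19 in replicate 2. Next were myrf-2 (181, rank 75), of the membrane-bound factors that promote lin-4 transcription with myrf-1, and ain-1 (175, rank 83), the GW182-like partner of the microRNA Argonautes. The ranks were 109 and 51 at myrf-2 and 46 and 128 at ain-1, in replicates 1 and 2.

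Weaker optimal regions were those of 7 other genes. At lin-66 the signal was 143, with the summit 402 bp upstream. The cofactor gene nhl-2, of the TRIM-NHL family, had a region of signal 113 located 787 bp upstream, though its nearest 5' end was that of tag-340. The region at kin-20, which encodes a casein kinase 1 relative of the clock kinase Doubletime, had a signal of 90.8 and was 1 of 3 in that window. For the nuclear receptor gene daf-12 the signal was 90.4 in an intron, for sea-2 it was 87.9 in an intron, and for the Argonaute gene alg-1 it was 83.7 at 3363 bp upstream. Close to the start of myrf-1 lay a region of signal 81.4, 280 bp upstream.

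The weakest of the 14 were lep-5, mab-10 and nhr-85, and the replicates ranked some of these far apart. At lep-5, which acts against lin-28, the signal was 63.4 and the ranks 392 in replicate 1 and 9628 in replicate 2, with C02B4.3 as the nearest gene. The summit at mab-10, a NAB-type cofactor of LIN-29, was 259 bp upstream with a signal of 52.9, and the ranks were 2396 and 407. That of nhr-85, a nuclear receptor that promotes pulsed lin-4 transcription, had a signal of 50.4, with ranks of 1247 and 959. Of the other 18 genes, 16 had candidates below the threshold only, among them the nuclear receptor genes nhr-23 (best rank 2843) and nhr-25 (2104), blmp-1 (2460) and the Dicer gene dcr-1 (9891), and mir-793 and pash-1 had none.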

How the data were processed

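The deposited files are peak lists of ChIP-seq regions for each replicate, for the pooled replicates and for the optimal set, per the deposited text files. Only the ce11 lists were used. Signal is the peak caller's value for each region, as the authors deposited it, and the summit comes from the deposited offset. Not given in the sources used here: the aligner, the peak caller and the reproducibility threshold. No control library was analysed here. Regions had been called in each replicate and in the pooled data, so a replicate list is not independent of the optimal list. Median widths were 396 bp in the pooled and optimal lists, 390 bp in replicate 1 and 410 bp in replicate 2.

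Regions were ranked by signal within a list. Windows ran from 5 kb upstream of the most upstream 5' end of any transcript to the gene end, in the Ensembl release 115 annotation of WBcel235, and 1 summit can count for several genes. Features and nearest 5' ends came from protein-coding and microRNA genes, and other noncoding genes were looked up separately at the optimal summits. MicroRNA names (261 of 261 genes) came from RefSeq. A pooled region was matched to the strongest replicate region that it overlapped by at least 1 bp. Sequences were read from the RefSeq genome. The members and lists were chosen with earlier results of these data known. The named genes were the 10 members, the other pathway genes with an optimal summit and up to 3 nearer neighbours of each region described, and genes named beyond these (the leading microRNA genes, those near distal summits, noncoding genes at summits, and nhr-23, nhr-25, blmp-1, dcr-1, mir-793 and pash-1) were chosen after their values were seen. Alternatives covered the window, the assignment, the stronger 557 optimal regions, the motif window and each replicate alone. The code was tested on simulated lists. Python 3.11.15, numpy 2.4.6, pandas 2.3.3 and matplotlib 3.10.9 were used.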

Additional observations from a re-analysis of the deposited data

How the results depend on the processing

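No paired analysis was possible because the series holds 1 group of 2 replicates. Read depth is unknown and the lists keep no control signal, so a gene without an optimal region is one with none detectable at this threshold, not one shown to lack MDL-1. The number of the 10 genes with an optimal region was 7. It was 5 with 2 kb upstream (without mir-48 and mir-84) and 5 by nearest 5' end of a protein-coding or microRNA gene (without let-7 and mir-48). With the stronger 557 optimal regions it was also 5 (without lin-14 and let-7). A replicate alone has no optimal list, so the strongest 1115 regions of its own list were counted. This gave 6 genes with replicate 1 left out (without lin-41) and 7 with replicate 2 left out. With 10 kb upstream, overlap in place of the summit, or the let-7 window drawn from its hairpin (chosen after seeing the data), the number with an optimal region stayed at 7. The share of all genes with an optimal region, 7.6%, was 5.01% with 2 kb upstream, 11.5% with 10 kb, 3.97% by nearest 5' end and 3.89% with the stronger 557, and that of microRNA genes, 18.4%, was 10.3% with 2 kb (a setting added after seeing the data). The 11 optimal regions of the 10 genes came to 7 among the stronger 557. GAGAGA was within 50 bp of 5 summits and within 100 bp of 9. Strongest ranks with 1 replicate left out spanned 53 to 69 at lin-42, 92 to 190 at mir-48, 169 to 170 at mir-84, 238 to 910 at lin-14, 361 to 552 at lin-4, 369 to 1620 at lin-41, 570 to 615 at let-7, 1135 to 1863 at hbl-1, 1540 to 4662 at lin-28 and 1865 to 2846 at lin-29. At lin-14 and lin-29 these ranks belonged to different regions in the replicates. The lin-14 summits were 4236 bp downstream of the most upstream 5' end in replicate 1 and 63 bp upstream of it in replicate 2. Those of lin-29 were 3695 bp downstream in replicate 1 and 6110 bp downstream in replicate 2. With 2 kb upstream the strongest rank was 8044 at mir-48 and 2383 at mir-84, and with 10 kb it was 271 at let-7. The cause of these shifts was not tested.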
